A study of Mus musculus with 24 samples.

Results

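The 9 genes that encode myeloid growth factor receptors, Csf1r, Csf2ra, Csf2rb, Csf2rb2, Csf3r, Kit, Flt3, Il3ra and Il6ra, were followed over 24 libraries of splenic monocytes. They are 9 of the 23930 amplicons in the table and were listed by name, with earlier results of these data known and no cut on their levels. RNA was measured in Ly6C hi and Ly6C low monocytes, labelled as macrophages by the submitters, that were sorted from the spleens of untreated C57BL/6 mice. Each subset came from wild-type (WT) mice, from Slc29a3-/- mice, and from Slc29a3-/- Tlr7-/- mice, and every one of the 6 groups held 4 libraries. Slc29a3 encodes a lysosomal nucleoside transporter and Tlr7 an endosomal sensor of nucleosides and single-stranded RNA, so the mutant groups share the loss of the transporter and differ in the sensor. Both mutations were made with CRISPR in the germline and are carried by every cell of the mouse. The sort took CD11b+ NK1.1- Ly6G- Siglec-F- cells, the Ly6C low gate was also high for Fcgr4, and cells of other lineages had been removed with beads beforehand. The ages and sexes of the mice, and whether a library came from 1 mouse or a pool, are not given in the sources used here, so P-values measure the spread between these libraries, which may be technical in part.

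These receptors pass signals for survival, proliferation and differentiation into myeloid cells. Csf1r, Kit and Flt3 are receptor tyrosine kinases, for M-CSF and IL-34, for stem cell factor and for FLT3 ligand. The others are cytokine receptor chains that signal through Janus kinases: Csf2ra binds GM-CSF and Il3ra binds IL-3, both with the common beta chain Csf2rb, while Csf2rb2 is a second beta chain of the mouse that serves IL-3 only. Csf3r is the G-CSF receptor, and Il6ra binds IL-6 and pairs with the signalling chain Il6st. M-CSF is the main survival factor of monocytes and macrophages, whereas Kit and Flt3 are best known from progenitors, mast cells and dendritic cells. The comparison asks how the receptors that set growth factor responsiveness differ between the 2 subsets and between the 3 genotypes.

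Every value below is in reads per 1000000 mapped reads (RPM) of 1 amplicon per gene. Since amplicons differ in efficiency, levels were compared between libraries and never between genes. The smallest steps in the table gave depths of 12311037 to 14572266 reads per library, so that 3 reads, the smallest count taken as a signal, were worth 0.206 to 0.244 RPM, and every receptor was read above that in every library. Such limits cover counting error only. Replicates 1 to 3 of WT stood apart from WT replicate 4 in both subsets: the summed level of 11 immediate early genes was 16843 to 16952 RPM against 1669 RPM in Ly6C hi cells, and 14647 to 20299.5 RPM against 2729 RPM in Ly6C low cells. Those 3 replicates also carry their own run of barcodes. A printed receptor difference from WT whose sign or call changes with WT replicate 4 alone is therefore given that way too. In that setting 1 library stands for WT and the spread comes from the other groups. Sizes can be compared there, but a failure to pass cannot. There, 23 of the 54 receptor differences that involve WT changed sign. For other genes, fold changes from WT are given over all WT libraries only, and how they change in that setting is not shown. Reads of Xist without Y-linked genes were present in 14 libraries, of Y-linked genes without Xist in 7, and of both in 3 libraries, all from Slc29a3-/- Tlr7-/- mice. In WT, replicate 4 held Y-linked reads without Xist, at 254 RPM in Ly6C hi and 431 RPM in Ly6C low cells. WT replicates 1 to 3 held Xist without Y-linked genes. Keeping only libraries without Y-linked reads therefore leaves out WT replicate 4, so that choice is not independent of the one above. The amplicons of Slc29a3 and Tlr7 were still read in the mutants. Slc29a3 averaged 188 ± 28.8 RPM in WT, 157 ± 21.0 in Slc29a3-/- and 272 ± 100.4 in Slc29a3-/- Tlr7-/- Ly6C hi cells (SD, n = 4), and 51.8 to 58.2 RPM in the Ly6C low groups. Tlr7 averaged 265 RPM in WT and 317 in Slc29a3-/- Tlr7-/- Ly6C hi cells, and 381 and 527 RPM in Ly6C low cells. A CRISPR mutation that stops translation need not remove an amplicon, so the genotypes rest on the labels. Fcgr4, a gate marker, averaged 33.6 to 52.0 RPM in the Ly6C hi groups and 744 to 2649 RPM in the Ly6C low groups. In these sorted bulk samples, fewer cells of a type and less RNA per cell cannot be told apart.

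**Figure D1:**
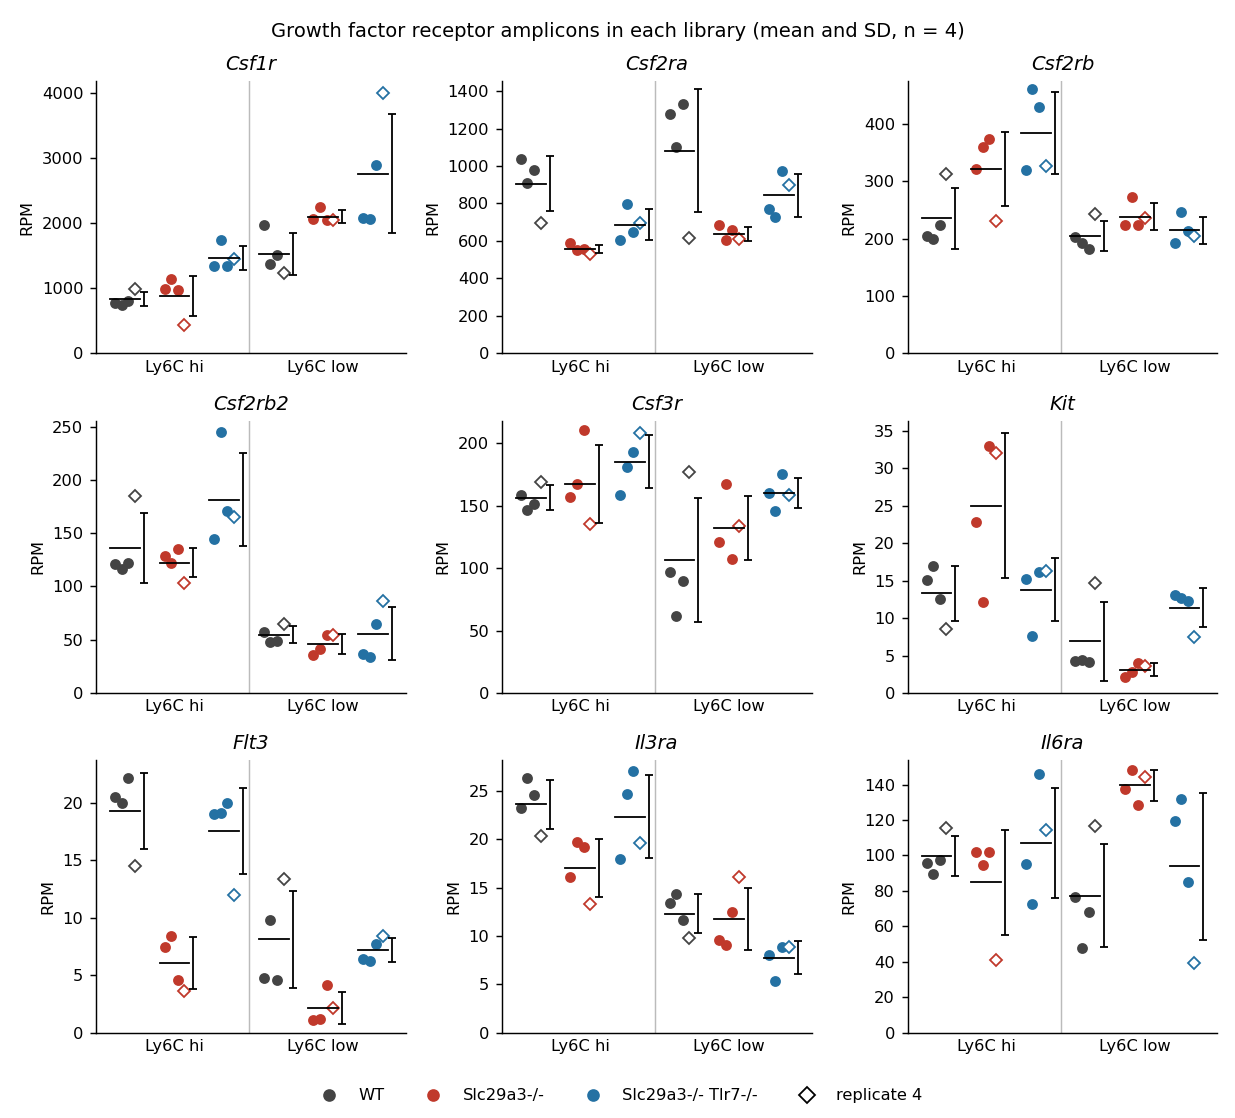
Level of each receptor in RPM in the 24 libraries, 1 panel per gene, with its own linear axis from 0. Points are libraries, open diamonds replicate 4 of each group, lines the mean and bars the SD (n = 4), from left to right WT, Slc29a3-/- and Slc29a3-/- Tlr7-/- in Ly6C hi and then in Ly6C low monocytes. Flt3 was below 9 RPM in all 8 Slc29a3-/- libraries, and Csf1r reached its highest value, 4011 RPM, in a Ly6C low library of Slc29a3-/- Tlr7-/- mice.

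In each comparison of genotypes, few of the 9 receptors passed the test in the main fit. Those that passed between Slc29a3-/- cells and another genotype were lower in the Slc29a3-/- cells. The test was limma on log2(RPM + 1), with P adjusted over all genes tested and a threshold of 0.05. In Ly6C hi monocytes, Slc29a3-/- differed from WT in 2 of the 9 receptors, Csf2ra and Flt3, both lower, where 27.9% of all genes passed and 17.8% passed as lower. Slc29a3-/- cells were lower than Slc29a3-/- Tlr7-/- cells in 3 receptors, Csf1r, Csf2rb2 and Flt3, against 20.4% of all genes in either direction and 10.3% as lower. The libraries of the 2 groups did not overlap in 3 receptors for the first of these comparisons (33.7% of all genes) and in 4 for the second (21.3%). None of the 9 passed between Slc29a3-/- Tlr7-/- and WT Ly6C hi cells (limma, 1.46% of all genes), although 4 had an unadjusted P under 0.05 (23.0% of all genes) and 2 had groups that did not overlap (11.8%). In Ly6C low monocytes, Flt3 fell in Slc29a3-/- against WT (1 of 9, against 4.64% of genes). Csf1r rose in Slc29a3-/- Tlr7-/- against WT (1 of 9, against 8.87%). Kit and Flt3 differed between the mutants, with the Slc29a3-/- cells lower (2 of 9, against 1.93%). Groups that did not overlap numbered 4 of 9 for Slc29a3-/- against WT (17.7% of all genes), 2 for Slc29a3-/- Tlr7-/- against WT (12.3%) and 4 between the mutants (11.9%). Slc29a3-/- cells enter comparisons with both other genotypes, and WT and Slc29a3-/- Tlr7-/- cells do so too, so these comparisons share libraries.

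**Figure D2:**
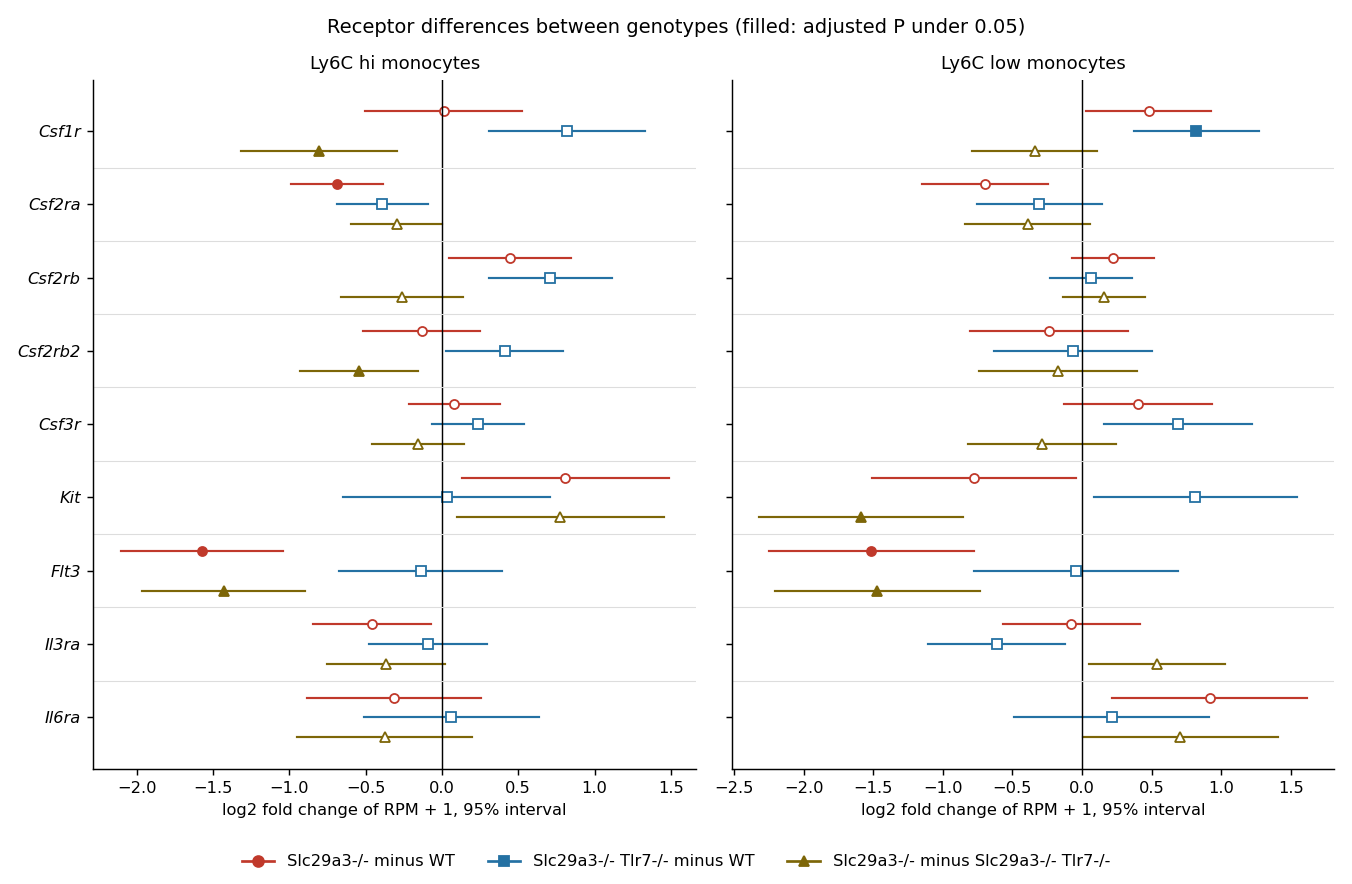
Difference between genotypes for each receptor, as log2 fold change of RPM + 1 with its 95% interval from limma, for Ly6C hi and Ly6C low monocytes. Filled symbols have an adjusted P under 0.05 over all genes. Flt3 sits at -1.43 to -1.57 in the 4 comparisons of Slc29a3-/- with another genotype, and its comparisons of Slc29a3-/- Tlr7-/- with WT lie near 0.

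The subset moved more of them. Of the 9 receptors, 6 differed between Ly6C hi and Ly6C low monocytes in WT (29.6% of all genes), 6 in Slc29a3-/- (41.2%) and 5 in Slc29a3-/- Tlr7-/- mice (33.3%). Csf1r was higher in Ly6C low cells and Csf2rb2, Flt3 and Il3ra higher in Ly6C hi cells in all 3 genotypes. The subsets did not overlap in 4 receptors in WT (33.8% of all genes), 5 in Slc29a3-/- (48.7%) and 5 in Slc29a3-/- Tlr7-/- mice (24.7%). Between the 2 WT replicate 4 libraries alone, 1 library stands for each WT subset, so only the sizes of the 6 differences are given. Those of Csf2rb2 (1.499) and Il3ra (0.98) were at least as large as over all WT libraries, those of Csf1r (-0.33) and Flt3 (0.11) were smaller, and those of Kit (-0.71) and Csf3r (-0.07) changed sign. Whether the subset difference itself changed with genotype was tested as an interaction. It passed for Kit between Slc29a3-/- and WT (1 of 9, 8.85% of genes), and for Kit and Il3ra between Slc29a3-/- and Slc29a3-/- Tlr7-/- (2 of 9, 8.97%).

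**Figure D3:**
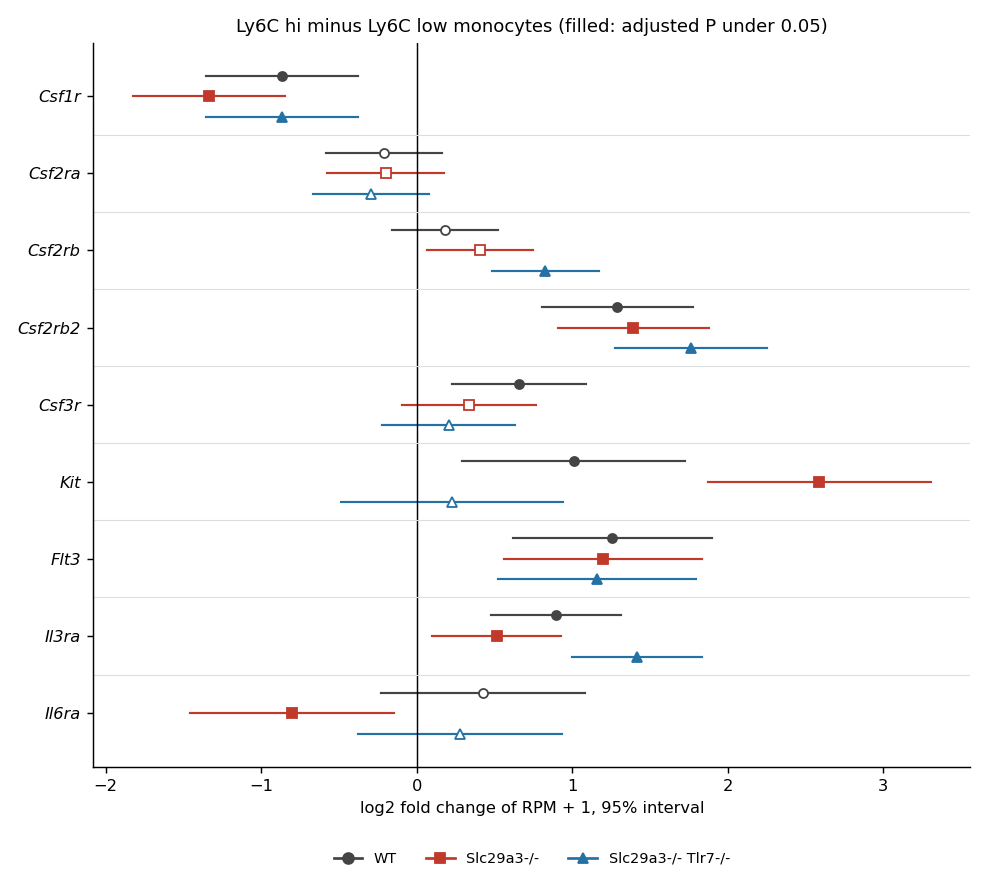
Ly6C hi minus Ly6C low for each receptor and genotype, as log2 fold change of RPM + 1 with its 95% interval from limma. Filled symbols have an adjusted P under 0.05. Kit runs from 0.23 in Slc29a3-/- Tlr7-/- to 2.59 in Slc29a3-/- mice, while Flt3 stays between 1.16 and 1.26.

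Csf1r, the M-CSF receptor and a defining gene of the lineage, was higher in Ly6C low than in Ly6C hi cells, and was highest in Slc29a3-/- Tlr7-/- mice. The WT Ly6C hi libraries gave 783, 743, 812 and 989 RPM. The Slc29a3-/- Ly6C hi libraries gave 997, 1140.7, 973 and 436 RPM, and those of Slc29a3-/- Tlr7-/- mice 1337, 1739, 1347 and 1448 RPM. Thus the Slc29a3-/- Tlr7-/- libraries all lay above every other Ly6C hi library, while Slc29a3-/- spanned the WT range through its replicate 4. The Ly6C low libraries of WT gave 1982, 1380.45, 1519 and 1240.6 RPM. Slc29a3-/- gave 2073, 2248, 2048 and 2045 RPM, and Slc29a3-/- Tlr7-/- gave 2084, 2068, 2892 and 4011 RPM. Both mutants lay above WT without overlap here, and they overlapped each other.

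By group mean, Csf1r ran from Ly6C low Slc29a3-/- Tlr7-/- (2764 ± 916 RPM) through Ly6C low Slc29a3-/- (2104 ± 97.2), Ly6C low WT (1530.4 ± 322), Ly6C hi Slc29a3-/- Tlr7-/- (1468 ± 187) and Ly6C hi Slc29a3-/- (887 ± 309.6) to Ly6C hi WT (832 ± 109, SD, n = 4 each). As neighbours in that order, the Ly6C low Slc29a3-/- and WT groups and the Ly6C hi Slc29a3-/- Tlr7-/- and Slc29a3-/- groups did not overlap, and the others did. The difference between subsets was -0.87 in WT (SE 0.24, adjusted P = 0.0068), -1.33 in Slc29a3-/- (adjusted P = 6.0e-05) and -0.87 in Slc29a3-/- Tlr7-/- (adjusted P = 0.0063), all log2 Ly6C hi minus Ly6C low. With WT replicate 4 alone the WT value was -0.33 (adjusted P = 0.84).

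Between genotypes, Csf1r rose in Ly6C low Slc29a3-/- Tlr7-/- cells by 0.82 on the log2 scale against WT (SE 0.21, adjusted P = 0.033), in 4 of 4 libraries. The same comparison in Ly6C hi cells gave 0.82 (SE 0.24, adjusted P = 0.078), again with 4 of 4 libraries above WT. It was 0.56 with WT replicate 4 alone, and passed without WT replicate 4 (0.91, adjusted P = 0.037) or without Slc29a3-/- replicate 4 (0.82, adjusted P = 0.028). Slc29a3-/- Ly6C hi cells differed from WT by 0.01, with a 95% interval of -0.50 to 0.52 (-0.25 with WT replicate 4 alone), and were below Slc29a3-/- Tlr7-/- cells by -0.81 (SE 0.24, adjusted P = 0.028). The Ly6C low difference of Slc29a3-/- from WT was 0.48 (adjusted P = 0.22), and 0.76 with WT replicate 4 alone. The calls depended on single libraries. Without Ly6C hi Slc29a3-/- replicate 4, the -0.81 became -0.50 (adjusted P = 0.035). It no longer passed without Slc29a3-/- Tlr7-/- replicate 2 (-0.72, adjusted P = 0.062) or replicate 4 (-0.81, adjusted P = 0.052), nor without the libraries that hold both Xist and Y-linked reads (-0.74, adjusted P = 0.13). The Ly6C low call did not pass without WT replicate 2 (0.78, adjusted P = 0.10), WT replicate 3 (0.82, adjusted P = 0.090), Slc29a3-/- Tlr7-/- replicate 3 (0.78, adjusted P = 0.082), or Slc29a3-/- replicate 1, 3 or 4 (adjusted P = 0.051 each), and with WT replicate 4 alone it was 1.10 (adjusted P = 0.43). Ly6C low Slc29a3-/- Tlr7-/- replicate 4, the library with the highest Csf1r, also held the highest summed level of 7 red pulp macrophage genes in that group, at 1582 RPM against 504 to 795 RPM in the others. Without it the rise was 0.62 (adjusted P = 0.048). All 7 of those genes were in the table, and their part in the result was not tested.

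Csf2ra, the GM-CSF binding chain, was lower by group mean in Slc29a3-/- than in WT cells of both subsets. The fall passed the test in Ly6C hi cells only, and in Ly6C low cells the groups overlapped through WT replicate 4. Its promoter was taken as the 250 bases before the start, at chr19:61228419-61228668 (minus strand). The promoters of Flt3 at chr5:147400490-147400739 (minus), Kit at chr5:75574737-75574986 (plus) and Csf2rb2 at chr15:78305722-78305971 (minus) were taken in the same way. The starts are those of RefSeq on GRCm38.p6, the assembly of the mm10 build that the labels name. Capitals mark GAGGAA or its reverse complement TTCCTC, a core of PU.1 and other ETS sites, on either strand.
Csf2ra: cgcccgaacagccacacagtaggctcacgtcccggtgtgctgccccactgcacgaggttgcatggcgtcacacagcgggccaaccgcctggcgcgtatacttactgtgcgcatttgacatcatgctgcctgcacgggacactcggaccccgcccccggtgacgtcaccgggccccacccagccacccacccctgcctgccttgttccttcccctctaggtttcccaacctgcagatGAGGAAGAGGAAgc
Flt3: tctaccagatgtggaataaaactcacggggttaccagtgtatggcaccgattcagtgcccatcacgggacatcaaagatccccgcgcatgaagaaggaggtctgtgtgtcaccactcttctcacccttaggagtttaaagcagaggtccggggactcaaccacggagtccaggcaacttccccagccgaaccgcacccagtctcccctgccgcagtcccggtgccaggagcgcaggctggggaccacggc
Kit: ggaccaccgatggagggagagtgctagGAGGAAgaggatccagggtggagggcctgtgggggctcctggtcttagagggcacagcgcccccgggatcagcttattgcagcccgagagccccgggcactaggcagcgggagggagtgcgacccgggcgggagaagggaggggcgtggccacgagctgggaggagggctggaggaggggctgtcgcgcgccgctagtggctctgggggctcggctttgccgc
Csf2rb2: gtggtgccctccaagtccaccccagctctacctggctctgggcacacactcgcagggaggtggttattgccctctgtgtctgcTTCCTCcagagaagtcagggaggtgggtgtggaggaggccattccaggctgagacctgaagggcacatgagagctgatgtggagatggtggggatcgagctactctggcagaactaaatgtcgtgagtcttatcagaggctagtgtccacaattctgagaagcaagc
Promoters were found for 7 of the 9 receptors. GAGGAA was in 5 of them, Csf2ra, Csf2rb2, Csf3r, Il6ra and Kit, with 2 copies in Csf2ra at positions -14 and -8 from the start, and in 23.25% of 32851 mouse promoters of that length. TGTGGT, a RUNX core found in 14.05% of promoters on either strand, was in none of the 7. TTGCNNAA, a C/EBP site found in 9.56%, was in Il3ra. AGATAA, which GATA factors bind and 9.99% hold, was in Il6ra. The Flt3 window held none of these motifs. A match describes letters only.

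In Ly6C hi cells, Csf2ra read 1038, 909, 981 and 697 RPM in WT, 587, 550.1, 555 and 533 RPM in Slc29a3-/-, and 607, 799, 647 and 695 RPM in Slc29a3-/- Tlr7-/- libraries. The Slc29a3-/- values lay close together and below every value of the other genotypes, and WT replicate 4 lay within the Slc29a3-/- Tlr7-/- range. The fall against WT was -0.69 (SE 0.14, adjusted P = 0.0029), in 4 of 4 libraries. Against WT replicate 4 alone it was -0.33 (adjusted P = 0.49). The difference of Slc29a3-/- Tlr7-/- from WT was -0.39 (adjusted P = 0.13), -0.51 without WT replicate 4 (adjusted P = 0.021) and -0.03 with it alone. Slc29a3-/- minus Slc29a3-/- Tlr7-/- was -0.30 (95% interval -0.60 to 0.00).

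The Ly6C low libraries of WT gave 1279.8, 1101, 1334 and 614 RPM for Csf2ra. Those of Slc29a3-/- mice gave 684, 604, 656 and 613 RPM, and those of Slc29a3-/- Tlr7-/- mice 773, 728, 972 and 899.7 RPM. WT replicates 1 to 3 were above every mutant library, whereas WT replicate 4 was at the level of the Slc29a3-/- cells. The difference between Slc29a3-/- and WT was -0.70 (SE 0.21, adjusted P = 0.073). It became -0.95 without WT replicate 4 (adjusted P = 6.7e-04) and 0.06 with that replicate alone (adjusted P = 0.97), so WT replicate 4 decides this value. Likewise the Slc29a3-/- Tlr7-/- difference from WT was -0.31 (adjusted P = 0.34), -0.56 without it (adjusted P = 0.013) and 0.45 with it alone (adjusted P = 0.44). Csf2ra was not called between the subsets in any genotype (-0.21 in WT, -0.20 in Slc29a3-/-, -0.29 in Slc29a3-/- Tlr7-/-), though WT reached -0.46 without Ly6C low replicate 4 (adjusted P = 0.014) and was 0.18 between the replicate 4 libraries. In the order of group means, only Ly6C low Slc29a3-/- and Ly6C hi Slc29a3-/-, the lowest 2, did not overlap as neighbours.

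Csf2rb, the beta chain shared by GM-CSF, IL-3 and IL-5, went the other way in Ly6C hi cells without passing the test. WT gave 205, 199.8, 223 and 312 RPM. Slc29a3-/- gave 321, 359, 373 and 231 RPM, and Slc29a3-/- Tlr7-/- gave 319.6, 460.5, 429.9 and 326 RPM. Slc29a3-/- Tlr7-/- lay above WT without overlap, and in Slc29a3-/- the exception was replicate 4. The difference from WT was 0.45 for Slc29a3-/- (SE 0.19, adjusted P = 0.090) and 0.71 for Slc29a3-/- Tlr7-/- (SE 0.19, adjusted P = 0.065). Both passed after TMM scaling (0.61, adjusted P = 0.017, and 0.74, adjusted P = 0.045), which moved the median of all genes between Slc29a3-/- and WT from -0.14 to 0.01. Both also passed without WT replicate 4 (0.59, adjusted P = 0.025, and 0.85, adjusted P = 0.0097) and without Slc29a3-/- replicate 4 (0.60, adjusted P = 0.029, and 0.71, adjusted P = 0.042), and the latter without Slc29a3-/- Tlr7-/- replicate 1 (0.79, adjusted P = 0.037). With WT replicate 4 alone they were 0.02 and 0.28, neither passing, and without the libraries that hold both Xist and Y-linked reads the latter was 0.48 (adjusted P = 0.33).

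Csf2rb in Ly6C low cells was 205 ± 26.4 RPM in WT, 239 ± 23.4 in Slc29a3-/- and 214 ± 23.4 in Slc29a3-/- Tlr7-/- (SD, n = 4), with all genotypes overlapping. The differences from WT were 0.22 for Slc29a3-/- and 0.07 for Slc29a3-/- Tlr7-/- cells, and -0.03 and -0.18 with WT replicate 4 alone, none of them passing. The Ly6C hi cells were higher by 0.83 in Slc29a3-/- Tlr7-/- mice (SE 0.17, adjusted P = 3.8e-04), by 0.41 in Slc29a3-/- (adjusted P = 0.053) and by 0.18 in WT (adjusted P = 0.45). The Slc29a3-/- value passed without its Ly6C hi replicate 4 (0.56, adjusted P = 0.0087), and at 0.41 to 0.47 without any of 5 other libraries (Ly6C hi WT replicate 4, Ly6C hi Slc29a3-/- Tlr7-/- replicate 2, and Ly6C low WT replicate 4, Slc29a3-/- replicate 2 and Slc29a3-/- Tlr7-/- replicate 4, adjusted P = 0.035 to 0.049). No neighbours in the order of the 6 group means were free of overlap.

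Csf2rb2, the beta chain for IL-3 alone, marked the Ly6C hi subset. Ly6C hi libraries read 121, 116, 122 and 185 RPM in WT, 129, 122, 135 and 103 RPM in Slc29a3-/-, and 145, 245, 170.4 and 165 RPM in Slc29a3-/- Tlr7-/- mice. Ly6C low libraries read 56.8, 47.5, 48.7 and 64.8 RPM in WT, 36.0, 40.9, 54.7 and 53.9 RPM in Slc29a3-/-, and 36.99, 34.0, 65.0 and 86.5 RPM in Slc29a3-/- Tlr7-/- mice. All 12 Ly6C hi libraries were thus above all 12 Ly6C low libraries. The difference was 1.29 in WT (SE 0.24, adjusted P = 1.4e-04), 1.39 in Slc29a3-/- (adjusted P = 3.2e-05) and 1.76 in Slc29a3-/- Tlr7-/- (adjusted P = 1.9e-06). Among genotypes, Slc29a3-/- Ly6C hi cells were below Slc29a3-/- Tlr7-/- cells by -0.54 (SE 0.18, adjusted P = 0.046), with no overlap. That call held in 4 of 24 alternatives. Leaving out any Ly6C hi library but WT replicate 4 and Slc29a3-/- Tlr7-/- replicate 1 ended it, at -0.39 (adjusted P = 0.11) without Slc29a3-/- Tlr7-/- replicate 2 and -0.47 to -0.59 (adjusted P = 0.057 to 0.13) without any other. Without the libraries that hold both Xist and Y-linked reads it was -0.34 (adjusted P = 0.26). Between Slc29a3-/- Tlr7-/- and WT the difference was 0.41 (adjusted P = 0.19) and 0.57 without WT replicate 4 (adjusted P = 0.043), but -0.06 with that replicate alone.

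The genes of the 2 beta chains lie side by side on chromosome 15, Csf2rb at 78325800 to 78351001 and Csf2rb2 at 78282507 to 78305721. Their coding sequences, of 2688 and 2634 bases, were identical at 2504 of 2626 aligned bases (95.4%), and 286 of 2535 windows of 100 bases in Csf2rb2 (11.28%) occurred unchanged in Csf2rb. The pair below shows 120 coding bases of the GENCODE vM21 transcripts, bases 601 to 720 of Csf2rb and 604 to 723 of Csf2rb2, in which 1 base, in capitals, tells the genes apart.
Csf2rb: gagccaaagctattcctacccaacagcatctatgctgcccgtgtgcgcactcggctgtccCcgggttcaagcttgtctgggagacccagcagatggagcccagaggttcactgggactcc
Csf2rb2: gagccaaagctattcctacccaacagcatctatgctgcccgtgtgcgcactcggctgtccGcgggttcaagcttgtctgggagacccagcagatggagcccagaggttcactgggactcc
The positions of the 2 amplicons are not given in the sources used here. Reads from such a stretch could be assigned to either gene, and both levels are uncertain to that extent.

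The balance of the chains within a library was followed as a ratio of RPM, chosen after the values were seen. The ratios Il3ra/Csf2rb2 and Csf2rb2/Csf2ra were also computed and not tested. The adjustment of P below covers neither them nor the choice. Csf2rb2/Csf2rb was 0.592, 0.583, 0.545 and 0.592 in WT Ly6C hi cells. It was 0.401, 0.339, 0.362 and 0.448 in Slc29a3-/- and 0.453, 0.532, 0.397 and 0.507 in Slc29a3-/- Tlr7-/- cells. Every WT ratio, replicate 4 included, was above every mutant ratio. The log2 difference from WT was -0.58 for Slc29a3-/- and -0.30 for Slc29a3-/- Tlr7-/-, each with P = 0.0286 in a two-sided exact permutation test, the smallest P that 4 against 4 libraries can give, and 0.0735 after adjustment over 18 such tests. The Ly6C low ratio was 0.281, 0.248, 0.267 and 0.267 in WT, and 0.161, 0.150, 0.246 and 0.229 in Slc29a3-/- cells (-0.47, exact permutation P = 0.0286, adjusted P = 0.0735). Those of Slc29a3-/- Tlr7-/- cells spread from 0.138 to 0.424, on both sides of WT. The ratio was higher in Ly6C hi cells in each genotype, by 1.12 in WT, 1.00 in Slc29a3-/- and 0.96 in Slc29a3-/- Tlr7-/- mice (exact permutation, adjusted P = 0.0735, 0.0735 and 0.10).

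Csf2rb/Csf2ra, the shared chain over the GM-CSF binding chain, was 0.198, 0.220, 0.228 and 0.448 in WT Ly6C hi cells. Slc29a3-/- cells had 0.547, 0.653, 0.672 and 0.433, and Slc29a3-/- Tlr7-/- cells 0.526, 0.576, 0.665 and 0.469. Here WT replicate 4 was near the mutant ratios. The log2 difference from WT was 1.14 for Slc29a3-/- (exact permutation, adjusted P = 0.10) and 1.10 for Slc29a3-/- Tlr7-/- (adjusted P = 0.0735). Ly6C low cells gave 0.158, 0.174, 0.137 and 0.395 in WT, 0.326 to 0.451 in Slc29a3-/- and 0.219 to 0.340 in Slc29a3-/- Tlr7-/- libraries. None of the 18 ratio tests was under 0.05 after adjustment, and at unadjusted P = 0.0286 there were 7.

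**Figure D4:**
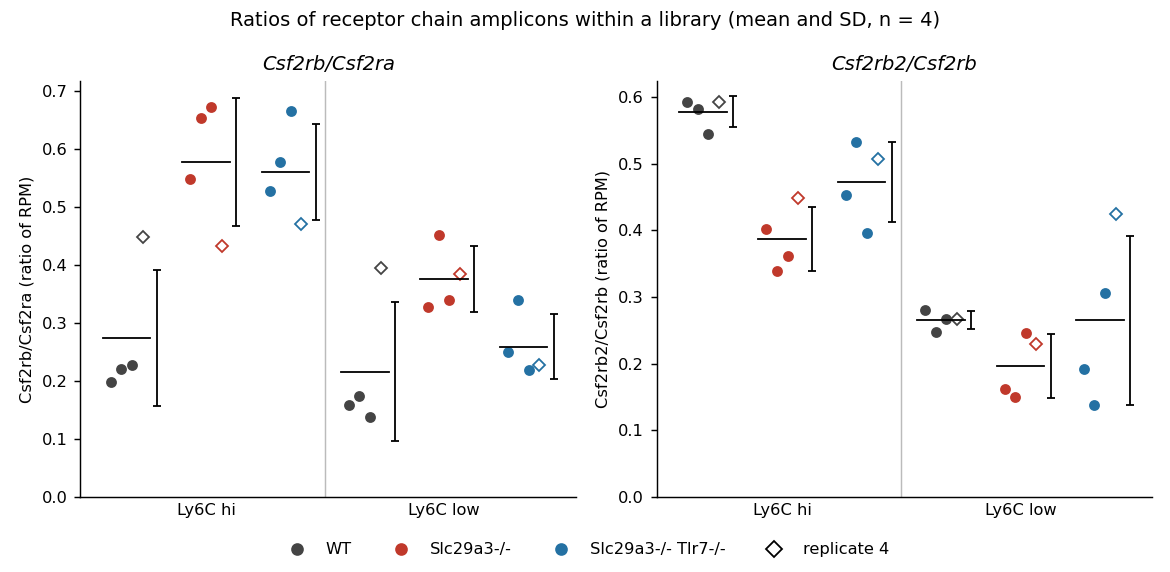
Ratio of the RPM of 2 receptor chains within each library, Csf2rb/Csf2ra on the left and Csf2rb2/Csf2rb on the right, on linear axes from 0. Points are libraries, open diamonds replicate 4, lines the mean and bars the SD (n = 4). WT Ly6C hi cells hold Csf2rb2/Csf2rb between 0.545 and 0.592, above the 8 Ly6C hi mutant libraries at 0.339 to 0.532.

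Il3ra, the IL-3 binding chain (chromosome 14, 14345912 to 14355493), was also higher in Ly6C hi cells. These read 23.2, 26.4, 24.6 and 20.4 RPM in WT, 16.1, 19.7, 19.2 and 13.3 RPM in Slc29a3-/-, and 17.9, 24.7, 27.1 and 19.6 RPM in Slc29a3-/- Tlr7-/- mice. Ly6C low cells read 13.4, 14.3, 11.7 and 9.81 RPM in WT, 9.62, 9.04, 12.5 and 16.05 RPM in Slc29a3-/-, and 7.995, 5.32, 8.84 and 8.87 RPM in Slc29a3-/- Tlr7-/- mice. The subsets were separate in WT and Slc29a3-/- Tlr7-/- mice and overlapped in Slc29a3-/- mice. The Ly6C hi excess was 0.90 in WT (SE 0.20, adjusted P = 0.0013), 0.51 in Slc29a3-/- (adjusted P = 0.045) and 1.42 in Slc29a3-/- Tlr7-/- mice (adjusted P = 5.1e-06). It differed between the mutants, by -0.91 (SE 0.29, adjusted P = 0.048). That interaction did not pass after TMM scaling (-0.71, adjusted P = 0.14), without the libraries holding both Xist and Y-linked reads (-0.53, adjusted P = 0.26), or without any of 13 single libraries (-0.76 to -0.96, adjusted P = 0.056 to 0.12). The Slc29a3-/- excess did not pass without any of 11 single libraries (0.41 to 0.55, adjusted P = 0.050 to 0.15). No genotype difference of Il3ra passed. The nearest were -0.46 in Slc29a3-/- Ly6C hi cells (adjusted P = 0.072) and -0.61 in Slc29a3-/- Tlr7-/- Ly6C low cells (adjusted P = 0.095), both against WT, the latter without overlap. Against WT replicate 4 alone they were -0.26 and -0.33.

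Csf3r, the G-CSF receptor (chromosome 4, 126023441 to 126044975), which is best known from neutrophils, was even across genotypes in Ly6C hi cells. WT read 159, 147, 152 and 169 RPM, Slc29a3-/- 157, 167, 211 and 136 RPM, and Slc29a3-/- Tlr7-/- 158, 181, 193 and 209 RPM. The 95% intervals of the differences from WT were -0.22 to 0.38 for Slc29a3-/- and -0.06 to 0.54 for Slc29a3-/- Tlr7-/-, and with WT replicate 4 alone the differences were -0.03 and 0.12. In the same Slc29a3-/- cells, 11 neutrophil genes summed to 76659 to 141877 RPM against 24875 to 34072 RPM in WT, with 7 of the 11 higher and 2 lower by the test, beside 10.2% of all genes higher and 17.8% lower. The summed level was highest in Slc29a3-/- replicate 4, where Csf3r was lowest. Ly6g, the gated neutrophil marker, was not at 0 in these libraries, and the part of neutrophil RNA in the receptor values was not tested.

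Csf3r in Ly6C low cells read 96.9, 61.6, 90.0 and 177 RPM in WT, 121, 167, 108 and 134 RPM in Slc29a3-/-, and 161, 146, 175 and 159 RPM in Slc29a3-/- Tlr7-/- mice. WT replicate 4 was the highest of the 12 and WT replicates 1 to 3 the lowest. The Slc29a3-/- Tlr7-/- difference from WT was 0.69 (SE 0.25, adjusted P = 0.088), and 0.97 without WT replicate 4 (adjusted P = 0.0041). That of Slc29a3-/- was 0.40 (adjusted P = 0.40), and 0.68 without WT replicate 4 (adjusted P = 0.025). Against WT replicate 4 alone both changed sign, to -0.15 and -0.44 (adjusted P = 0.79 and 0.68). The subset difference passed in WT (0.66, SE 0.21, adjusted P = 0.018), and not without Ly6C low WT replicate 2 (0.43, adjusted P = 0.11) or 3 (0.61, adjusted P = 0.052). With WT replicate 4 alone it was -0.07. It was 0.34 in Slc29a3-/- and 0.21 in Slc29a3-/- Tlr7-/- mice. No neighbours in the order of the 6 means were free of overlap.

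Kit, the stem cell factor receptor of progenitors and mast cells (chromosome 5, 75574987 to 75656722), was the receptor whose subset difference changed most with genotype. In Ly6C hi cells it read 15.1, 16.999, 12.6 and 8.58 RPM in WT, 22.8, 12.2, 33.1 and 32.01 RPM in Slc29a3-/-, and 15.25, 7.55, 16.2 and 16.3 RPM in Slc29a3-/- Tlr7-/- libraries. The Ly6C low libraries read 4.26, 4.46, 4.07 and 14.7 RPM in WT, 2.07, 2.80, 3.94 and 3.65 RPM in Slc29a3-/-, and 13.1, 12.7, 12.3 and 7.51 RPM in Slc29a3-/- Tlr7-/- libraries. Slc29a3-/- cells thus held the 3 highest of the 24 values in Ly6C hi and the lowest 4 in Ly6C low monocytes, and WT replicate 4 broke with the other WT libraries in both subsets.

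The Ly6C hi minus Ly6C low difference of Kit was 2.59 in Slc29a3-/- (SE 0.35, adjusted P = 1.2e-06), 1.01 in WT (adjusted P = 0.029) and 0.23 in Slc29a3-/- Tlr7-/- mice (95% interval -0.49 to 0.94). The Slc29a3-/- difference exceeded that of Slc29a3-/- Tlr7-/- mice by 2.36 (SE 0.49, adjusted P = 0.0037), and by 2.07 without the libraries that hold both Xist and Y-linked reads (adjusted P = 0.027), and leaving out any single library kept the call. It exceeded that of WT by 1.58 (SE 0.49, adjusted P = 0.044). The latter did not pass without any of 12 single libraries (1.19 to 1.68, adjusted P = 0.050 to 0.11), and the lowest value came without Ly6C low WT replicate 4. With WT replicate 4 alone it was 3.30 (adjusted P = 0.058). The WT difference did not pass without any of WT replicates 1 to 3 in either subset (0.86 to 1.02, adjusted P = 0.054 to 0.098), and with WT replicate 4 alone it was -0.71.

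Within Ly6C low cells, Kit of Slc29a3-/- cells was below that of Slc29a3-/- Tlr7-/- cells by -1.59 (SE 0.34, adjusted P = 0.025), in 4 of 4 libraries. It did not pass without any of the Slc29a3-/- libraries (-1.45 to -1.68, adjusted P = 0.058 to 0.095) or Slc29a3-/- Tlr7-/- replicate 3 (-1.54, adjusted P = 0.079). Against WT, Slc29a3-/- cells differed by -0.77 (adjusted P = 0.22), without overlap, and Slc29a3-/- Tlr7-/- cells by 0.81 (adjusted P = 0.13, and 1.21 with adjusted P = 0.0058 without WT replicate 4). Against WT replicate 4 alone these were -1.96 (adjusted P = 0.10) and -0.37 (adjusted P = 0.68). Within Ly6C hi cells, the Slc29a3-/- difference was 0.81 from WT (adjusted P = 0.072) and 0.77 from Slc29a3-/- Tlr7-/- (adjusted P = 0.098). The former was 1.35 with WT replicate 4 alone (adjusted P = 0.22). Without Slc29a3-/- replicate 2 they were 1.10 (adjusted P = 0.014) and 1.07 (adjusted P = 0.018), and the former also passed without Slc29a3-/- Tlr7-/- replicate 2 (0.81, adjusted P = 0.039) and after TMM scaling (0.96, adjusted P = 0.039).

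Genes of granulocyte and monocyte progenitors moved with Kit in Ly6C hi cells. The sum of 8 of them was 1729, 973, 3092 and 2662 RPM in Slc29a3-/- replicates 1 to 4, in the same order as Kit, against 451 to 512 RPM in WT and 418 to 1007 RPM in Slc29a3-/- Tlr7-/- cells. Of the 8, 6 rose and none fell against WT, beside 10.2% of all genes that rose, among them Elane, a granule protease (484 ± 220.1 against 88.6 ± 9.76 RPM), and Mpo, the myeloperoxidase (12.98 ± 5.43 against 2.16 ± 1.24 RPM), while Cd34, a stem and progenitor antigen, was at 2.70 ± 0.748 against 3.28 ± 1.65 RPM. Mast cell and basophil genes summed to 155 to 266 RPM in Slc29a3-/- and 46.7 to 101 RPM in WT cells. Most of that sum was Hdc, histidine decarboxylase, at 199.9 RPM in Slc29a3-/-, whereas Fcer1a and Cpa3, defining genes of these cells, were at 0.040 and 0.258 RPM. The progenitor sum of Ly6C low cells was 55.0 ± 37.7 RPM in WT, 20.1 ± 8.48 in Slc29a3-/- and 12.6 ± 4.52 in Slc29a3-/- Tlr7-/-, so that Kit was highest where this sum was lowest, and Ms4a3, a granulocyte and monocyte progenitor gene, was at 0 in all 4 Slc29a3-/- Tlr7-/- libraries. The part of progenitor or mast cell RNA in the Kit values was not tested.

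Flt3, the receptor for FLT3 ligand (chromosome 5, 147330741 to 147400489), was lower in Slc29a3-/- monocytes of both subsets than in either other genotype. In Ly6C hi cells WT read 20.53, 19.98, 22.2 and 14.5 RPM, Slc29a3-/- 7.48, 8.38, 4.60 and 3.65 RPM, and Slc29a3-/- Tlr7-/- 19.0, 19.2, 20.04 and 11.9 RPM. Among Ly6C low libraries WT read 4.75, 9.81, 4.57 and 13.3 RPM, Slc29a3-/- 1.11, 1.2, 4.10 and 2.15 RPM, and Slc29a3-/- Tlr7-/- 6.38, 6.27, 7.73 and 8.39 RPM. All 4 Slc29a3-/- libraries of a subset were below all 8 others of that subset, and the other genotypes overlapped. By group mean the order was Ly6C hi WT (19.3 RPM), Ly6C hi Slc29a3-/- Tlr7-/- (17.5), Ly6C low WT (8.12), Ly6C low Slc29a3-/- Tlr7-/- (7.19), Ly6C hi Slc29a3-/- (6.03) and Ly6C low Slc29a3-/- (2.14), and each neighbour overlapped the next.

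In Ly6C hi cells the fall of Flt3 was -1.57 against WT (SE 0.25, adjusted P = 7.1e-04) and -1.43 against Slc29a3-/- Tlr7-/- cells (SE 0.25, adjusted P = 0.0013). Both passed with every single library left out. Against WT replicate 4 alone the first was -1.20 (adjusted P = 0.20), and in libraries without Y-linked reads, where 1 Slc29a3-/- Tlr7-/- library remains, the second was -1.05 (adjusted P = 0.088). The Ly6C low fall was -1.51 against WT (SE 0.34, adjusted P = 0.022) and -1.47 against Slc29a3-/- Tlr7-/- (SE 0.34, adjusted P = 0.042). These rest on fewer reads and depended on single libraries. The first did not pass without WT replicate 2 (-1.39, adjusted P = 0.086) or Slc29a3-/- replicate 1, 2 or 4 (-1.36 to -1.55, adjusted P = 0.058 to 0.086), and was -2.29 with WT replicate 4 alone (adjusted P = 0.11). The second did not pass without the same Slc29a3-/- libraries, Slc29a3-/- Tlr7-/- replicate 3 or 4, or WT replicate 2 (-1.31 to -1.50, adjusted P = 0.055 to 0.15).

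Flt3 of Slc29a3-/- Tlr7-/- cells differed from WT by -0.14 in Ly6C hi (95% interval -0.67 to 0.39) and -0.04 in Ly6C low cells (-0.78 to 0.69). Against WT replicate 4 alone these were 0.23 and -0.82, neither passing. The difference between subsets was 1.26 in WT (adjusted P = 0.0029), 1.199 in Slc29a3-/- (adjusted P = 0.0030) and 1.16 in Slc29a3-/- Tlr7-/- mice (adjusted P = 0.0052), and the interaction of Slc29a3-/- with WT was -0.06 (95% interval -0.96 to 0.84), and 1.09 with WT replicate 4 alone (adjusted P = 0.64). With WT replicate 4 alone the WT difference was 0.11 (adjusted P = 0.96). Without the libraries that hold both Xist and Y-linked reads the Slc29a3-/- Tlr7-/- difference was 0.93 (adjusted P = 0.098).

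Dendritic cell genes moved with Flt3 in Ly6C hi cells, and in Ly6C low cells some of them did. The sum of 7 conventional dendritic cell genes, Flt3 not counted, was 331 to 408 RPM in WT, 116 to 260.2 RPM in Slc29a3-/- and 277 to 431 RPM in Slc29a3-/- Tlr7-/- Ly6C hi libraries, and all 7 fell between Slc29a3-/- and WT (17.8% of all genes fell). Among them were Clec9a (35.8 ± 8.91 to 4.15 ± 0.554 RPM) and Xcr1 (11.6 ± 4.22 to 1.17 ± 0.763 RPM), surface receptors of cross-presenting dendritic cells, and Zbtb46, a transcription factor of the lineage (4.93 ± 1.07 to 0.953 ± 0.744 RPM). Plasmacytoid dendritic cell genes summed to 186 to 280.0 RPM in WT and 76.3 to 156 RPM in Slc29a3-/- cells, with 5 of 5 tested lower, Siglech from 34.3 ± 13.9 to 2.46 ± 0.954 RPM. The conventional dendritic sum of Ly6C low cells was 919 to 1345 RPM in WT, and 1107 to 1559 in Slc29a3-/- libraries, most of it Itgax, which these monocytes also express, so the sum was higher by mean where Flt3 was lower. Of the 7 genes, Zbtb46 and Clec9a fell there (2.63% of all genes fell), and Clec9a was at 15.3 ± 2.61 in WT and 5.34 ± 1.74 RPM in Slc29a3-/- cells. None of these defining genes averaged 0 in either subset, and the part of dendritic cell RNA in the Flt3 values was not tested.

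**Figure D5:**
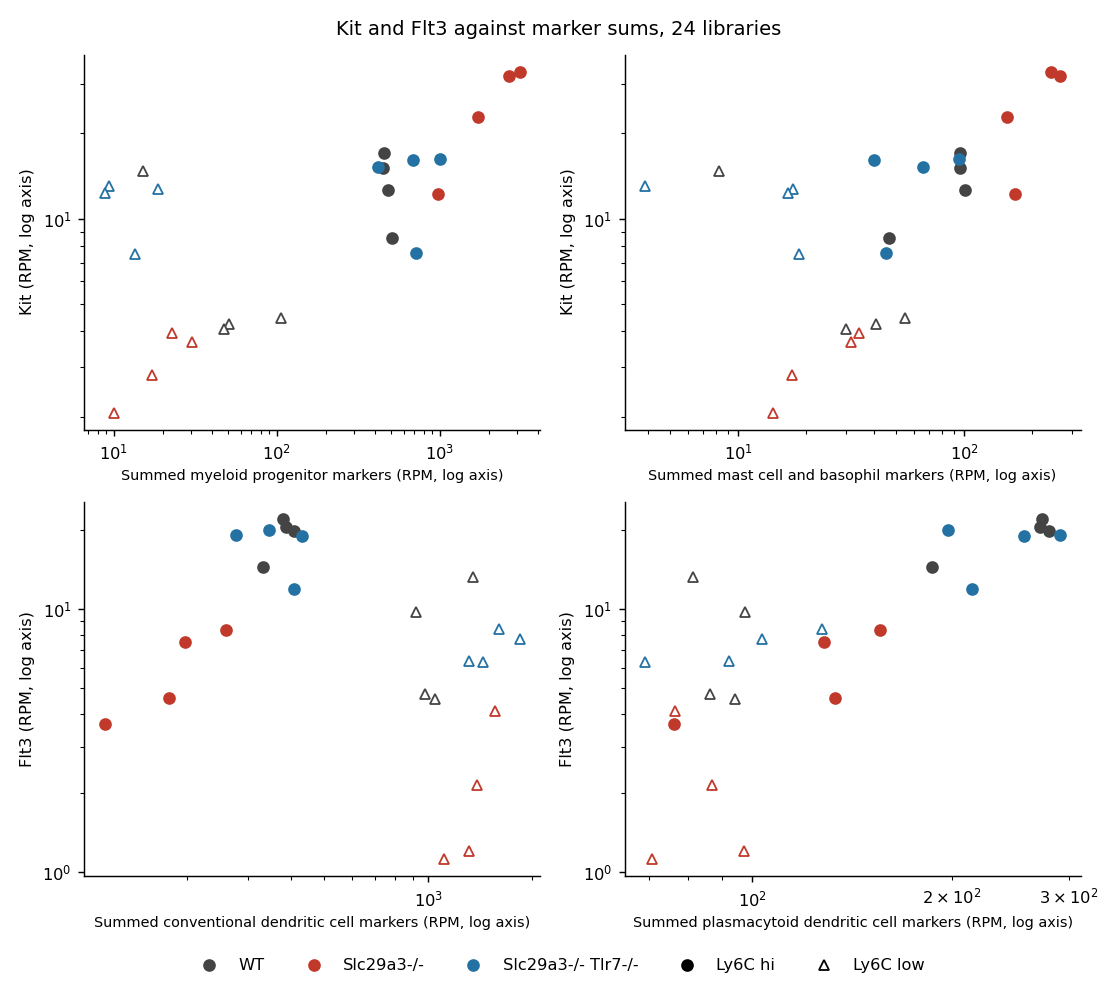
Kit against the summed RPM of progenitor genes and of mast cell and basophil genes, and Flt3 against that of conventional and plasmacytoid dendritic cell genes, in the 24 libraries on log axes. Circles are Ly6C hi and triangles Ly6C low libraries. In the Kit panels the Slc29a3-/- Ly6C hi libraries lie at progenitor sums of 973 to 3092 RPM, and in the Flt3 panels at conventional dendritic sums of 116 to 260.2 RPM, below the other Ly6C hi libraries.

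Il6ra, the IL-6 binding chain (chromosome 3, 89869324 to 89913196), showed no called genotype difference. Ly6C hi cells read 95.9, 89.6, 97.6 and 115 RPM in WT, 102, 94.4, 102 and 40.7 RPM in Slc29a3-/-, and 95.4, 72.3, 146 and 114 RPM in Slc29a3-/- Tlr7-/- mice. Ly6C low cells read 76.7, 47.6, 68.2 and 117 RPM in WT, 138, 148, 128 and 145 RPM in Slc29a3-/-, and 119, 132, 85.1 and 39.2 RPM in Slc29a3-/- Tlr7-/- mice. All 4 Slc29a3-/- Ly6C low libraries were above WT, and the Slc29a3-/- Tlr7-/- libraries spread over the ranges of both. The Slc29a3-/- difference from WT there was 0.91 (SE 0.33, adjusted P = 0.13). It passed without WT replicate 4 (1.13, adjusted P = 0.036) or Slc29a3-/- Tlr7-/- replicate 4 (0.91, adjusted P = 0.022), and was 0.25 with WT replicate 4 alone (adjusted P = 0.94).

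Slc29a3-/- mice had less Il6ra in Ly6C hi than in Ly6C low cells (-0.80, SE 0.32, adjusted P = 0.047), where WT and Slc29a3-/- Tlr7-/- mice gave 0.43 and 0.28 (-0.02 between the WT replicate 4 libraries). This did not pass after TMM scaling (-0.70, adjusted P = 0.054). It was -0.48 without Ly6C hi Slc29a3-/- replicate 4 (adjusted P = 0.23) and missed the threshold without any of 12 other single libraries (-0.77 to -0.84, adjusted P = 0.052 to 0.089). The interaction with WT was -1.23 (SE 0.45, adjusted P = 0.094), and -1.45 without Ly6C low WT replicate 4 (adjusted P = 0.039) or -1.23 without Ly6C low Slc29a3-/- Tlr7-/- replicate 4 (adjusted P = 0.033). Il6st, its signalling partner, was 314 ± 69.6 RPM in WT, 201 ± 37.1 in Slc29a3-/- and 346 ± 38.6 in Slc29a3-/- Tlr7-/- Ly6C hi cells, and fell by 0.64 on the log2 scale in Slc29a3-/- against WT (adjusted P = 0.011). Its Ly6C low group means ran from 194 to 199.98 RPM.

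The other genes of the pathway were counted by list. Of 9 ligand genes, Csf1 and Flt3l were the 2 that passed the filter on low values, which asked for 1 RPM in 4 libraries. Csf1, encoding M-CSF, fell in Slc29a3-/- Ly6C hi cells by 1.23 on the log2 scale (13.7 ± 0.833 against 38.01 ± 17.4 RPM, adjusted P = 0.016), and WT replicate 4 stood at 12.4 RPM. Flt3l fell by 0.87 there (20.8 ± 3.32 against 38.9 ± 4.94 RPM, adjusted P = 0.0029) and by 0.71 in Slc29a3-/- Tlr7-/- Ly6C low cells (adjusted P = 0.042). The median of the 2 was -1.05 in Slc29a3-/- Ly6C hi cells, beside -0.14 over all genes.

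Among 4 tested partner chains of related receptors, 3 fell in Slc29a3-/- Ly6C hi cells against WT (17.8% of all genes fell) and 1 rose in Ly6C low cells (2.02% rose). Lifr, the receptor chain for leukemia inhibitory factor, moved in opposite directions in the subsets. It went from 58.9 ± 27.2 in WT to 30.5 ± 9.38 RPM in Slc29a3-/- Ly6C hi cells (-0.88, adjusted P = 0.028) and from 58.9 ± 15.3 to 205 ± 40.7 RPM in Ly6C low cells (1.80, adjusted P = 4.2e-04), and the interaction was -2.69 (adjusted P = 1.0e-04). In Slc29a3-/- Tlr7-/- cells Lifr was 58.8 ± 15.5 and 77.1 ± 17.6 RPM.

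The kinases and adaptors behind the receptors fell about as often as all genes did, of which 17.8% fell. In Slc29a3-/- Ly6C hi cells against WT, 1 of 7 Janus kinase and STAT genes fell (Jak1, -0.59), 3 of 13 kinases and adaptors fell (Gab2, -0.80, Gab3, -0.71, Pik3r1, -0.55), and 1 of 8 negative regulators fell (Cblb, -0.64), with list medians of -0.04, 0.00 and -0.19. None of these lists had a call between Slc29a3-/- Tlr7-/- and WT Ly6C hi cells, where 1.46% of all genes passed. Between subsets more genes passed. Stat5b, a STAT of the beta chain receptors, was lower in Ly6C hi cells in all 3 genotypes (-0.68 in WT, -1.21 in Slc29a3-/-, -0.75 in Slc29a3-/- Tlr7-/-), and Dok2, an adaptor that damps kinase signals, was higher (1.79, 2.41 and 2.73). Of the 8 negative regulators, 3, 6 and 3 were lower in Ly6C hi cells of WT, Slc29a3-/- and Slc29a3-/- Tlr7-/- mice, beside 10.5%, 22.1% and 11.8% of all genes.

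Of 11 genes that growth factor signals induce, 7 fell in Slc29a3-/- Ly6C hi cells against WT (17.8% of all genes fell) and 1 in Slc29a3-/- Tlr7-/- cells (1.15%). The Ly6C low counts were 4 (2.63%) and 5 (6.37%), and none rose. In Ly6C hi cells their sum was 3414 to 3435 RPM in WT replicates 1 to 3 and 1270.5 RPM in WT replicate 4, against 703 to 1084 RPM in Slc29a3-/- and 1241 to 1380 RPM in Slc29a3-/- Tlr7-/- libraries, so WT replicate 4 lay within the latter range. Pim1, a STAT5 target kinase, fell from 1682 ± 915 in WT to 230.0 ± 28.6 RPM in the Ly6C hi cells of Slc29a3-/- mice (-2.53, adjusted P = 0.0018), and Osm, encoding oncostatin M, was 82.8 ± 52.6 against 5.28 ± 0.939 RPM (-3.04, adjusted P = 0.0089). The spread of WT was that between replicates 1 to 3 and replicate 4, which read 311 RPM for Pim1 and 4.13 RPM for Osm, near the mutant levels. The immediate early sum moved with it (16843 to 16952 against 1669 RPM), and its part in these falls was not tested. Between the mutants, 3 of 11 were lower in Slc29a3-/- Ly6C hi cells, beside 10.3% of all genes. They were Ccnd1 (-1.44), Dusp6 (-1.07) and Spred1 (-0.85). Ccnd1, a G1 cyclin, was 1.76 ± 0.749 against 6.39 ± 1.49 RPM, and Dusp6, a phosphatase of ERK, 94.1 ± 30.2 against 189.7 ± 9.88 RPM. No gene of the list differed between the mutants in Ly6C low cells, where 1.93% of all genes did.

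Transcription factors that act on receptor genes split in Slc29a3-/- Ly6C hi cells, with 2 of 10 higher and 5 lower than in WT, beside 10.2% and 17.8% of all genes. Those higher were Gfi1 (79.0 ± 27.4 against 19.1 ± 2.05 RPM, 1.93) and Cebpe (63.5 ± 6.64 against 16.1 ± 1.90 RPM, 1.92), both factors of granulocyte differentiation. The lower ones included Irf8, a factor of monocyte and dendritic cell differentiation (241 ± 59.7 against 640.2 ± 44.4 RPM, -1.43), and Klf4 (-1.54). Gfi1 and Irf8 kept their direction and passed against Slc29a3-/- Tlr7-/- cells too (1.79 and -0.99). Spi1, encoding PU.1, was 939 ± 46.05 RPM in WT, 926 ± 50.0 in Slc29a3-/- and 926 ± 72.0 in Slc29a3-/- Tlr7-/- Ly6C hi cells, and lower in Ly6C hi than in Ly6C low cells in each genotype (-0.67, -0.53 and -0.52). In Ly6C low cells Runx1 alone of 8 passed against WT, in both mutants (-0.53 and -0.61), beside 4.64% and 8.87% of all genes. Of 4 tested genes of receptor shedding, Rhbdf1 (-0.79) and Rhbdf2 (-0.44), partners of the sheddase Adam17, fell in Slc29a3-/- Ly6C hi cells (17.8% of all genes fell), and Adam17 differed by 0.01 (adjusted P = 0.99).

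The genes whose log2 levels followed each receptor most closely over the 24 libraries, among 7492 genes with a mean of at least 10 RPM, were taken by Pearson's r as a description. The libraries share groups. WT replicates 1 to 3 also share a run of barcodes and a higher depth, at 14237380 to 14572266 reads against 12311037 to 13048399 in the others. The nearest genes were Ptprj (0.965) and Tnfrsf1b (0.964) for Csf1r, Map3k15 (0.909) for Csf2ra, Anxa5 (0.875) for Csf2rb, Stom (0.964) for Csf2rb2, and Fes (0.91) for Csf3r. For Kit they were Ffar2 (0.915) and Marveld1 (0.887), for Flt3 Adam8 (0.949) and Anxa6 (0.903), for Il3ra Papd7 (0.922), and for Il6ra Apeh (0.883). No receptor was among the 3 nearest genes of another. Among the receptors themselves, r was highest between Csf2rb2 and Il3ra, both chains of the IL-3 receptor (0.824), and lowest between Csf1r and Kit (-0.605), while Csf2ra and Csf2rb, the chains of the GM-CSF receptor, gave -0.594.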

How the data were processed

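The authors sorted splenic monocytes and made Ion AmpliSeq libraries from 1 ng of RNA with an integrity number above 7.3. They deposited 1 table of reads per 1000000 (RPM) per amplicon for 24 libraries, mm10 build per the labels. Their methods name Cutadapt, STAR, HTSeq and DESeq2, and which step wrote the table is not given in the sources used here. Zeros written as 0.0001 were set back to 0, 27 date-like gene names were repaired, and every sample column was used. Groups follow the labels. No count test was run, and log2(RPM + 1) was fitted with limma 3.58.1 (R 4.3.3) with an intensity trend. The fit took amplicons with at least 1 RPM in 4 libraries. It used the 12 libraries of a subset for genotypes and all 24 for subsets and interactions. P was adjusted by Benjamini-Hochberg over all amplicons tested, and all 9 receptors passed the filter. The fit was tested on simulated data. Since the pseudocount is 1 RPM, fold changes of low genes such as Flt3 and Kit are understated. Named genes are all receptors and, from the pathway and marker lists, the genes with the largest called differences, with defining markers. The receptors and lists were chosen with earlier results of these data known. Alternatives covered scaling, pseudocount, filters, the study's threshold of 1.5-fold, the replicate block, left-out libraries, WT replicate 4 alone and libraries by Xist and Y-linked reads, the last chosen after seeing the data. Ratios were compared by exact permutation with scipy 1.17.1.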

Additional observations from a re-analysis of the deposited data

Results flagged for a closer look

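In 7 of 54 groups of 4 libraries (9 receptors in 6 groups), the highest or lowest library lay further from the others than Dixon's 95% critical value for the gap over the range allows, where chance flags about 2.7. Csf2rb2 was at 185 RPM in Ly6C hi WT replicate 4 and Kit at 14.7 RPM in Ly6C low WT replicate 4, above the other WT libraries. Kit was at 7.55 RPM in Ly6C hi Slc29a3-/- Tlr7-/- replicate 2 and at 7.51 RPM in Ly6C low Slc29a3-/- Tlr7-/- replicate 4, below the others of each group. Flt3 was at 11.9 RPM in Ly6C hi Slc29a3-/- Tlr7-/- replicate 4 and Il6ra at 40.7 RPM in Ly6C hi Slc29a3-/- replicate 4, both lowest, and Csf1r at 2248 RPM in Ly6C low Slc29a3-/- replicate 2 was highest in a tight group.

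The subset difference depended on genotype in 3 tests of the interaction by limma. For Kit, Ly6C hi minus Ly6C low was larger in Slc29a3-/- than in WT mice by 1.58 and than in Slc29a3-/- Tlr7-/- mice by 2.36 on the log2 scale. For Il3ra it was smaller in Slc29a3-/- than in Slc29a3-/- Tlr7-/- mice (-0.91). The Kit interaction between the mutants kept its call with any single library left out. The Kit interaction with WT and that of Il3ra did not.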

How the results depend on the processing

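Of 99 receptor comparisons (9 receptors in 11 contrasts), 29 were called, 7 of these under every alternative that tested them: Csf1r, Csf2rb2, Kit and Flt3 between the subsets of Slc29a3-/- mice, and Csf1r, Csf2rb2 and Il3ra between those of Slc29a3-/- Tlr7-/- mice. Of the 70 not called, 41 were called under none. The 7 and the 41 take in fits that leave 1 library in a compared group, where a failure to pass cannot be read. The Ly6C hi fall of Flt3 against WT passed with every single library left out. It is not among the 7, and was -1.20 with WT replicate 4 alone. Each count below is of receptors called, and the cause of a change was not tested. The number of all genes that passed changed with the setting too, so a changed count is not a trait of the receptors. Between Slc29a3-/- Tlr7-/- and WT Ly6C low cells, 915 of 10317 genes passed in the main fit. Without the filter 618 of 19610 passed, and with all 24 libraries 1758 of 11042. In the counts of receptors called below, fits that leave 1 library in a compared group are not used.

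Slc29a3-/- against WT in Ly6C hi cells (2 called) gave 4 with TMM or RLE scaling. Slc29a3-/- Tlr7-/- against WT there (0) gave 2 by the study's threshold and 1 with TMM, RLE or all 24 libraries. Slc29a3-/- against Slc29a3-/- Tlr7-/- there (3) gave 1 without the filter, with the compared groups alone, or without libraries holding both Xist and Y-linked reads. In Ly6C low cells, Slc29a3-/- against WT (1) gave 4 by the study's threshold and 0 without the filter. It gave 0 with a filter of a mean of 10 RPM, which left Kit and Flt3 untested. With the compared groups alone or all 24 libraries it gave 2. In libraries without Y-linked reads, which leave out WT replicate 4, it gave 6. Slc29a3-/- Tlr7-/- against WT (1) gave 4 by the study's threshold, 2 with TMM or RLE and 3 with all 24 libraries. It gave 0 without the filter or with the compared groups alone. Slc29a3-/- against Slc29a3-/- Tlr7-/- (2) gave 0 without the filter or with a mean of 10 RPM. Between WT subsets (6), the sizes with WT replicate 4 alone are given above. The interaction of Slc29a3-/- with WT (1) gave 2 by the study's threshold or with the compared groups alone. It gave 0 without the filter or with a pseudocount of 0.1. That with Slc29a3-/- Tlr7-/- (2) gave 1 with TMM, RLE, no filter, a pseudocount of 0.1 or the compared groups alone. It also gave 1 without libraries holding both Xist and Y-linked reads.

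Leaving out 1 library at a time gave 2 to 3, 0 to 4 and 1 to 3 calls for the 3 Ly6C hi genotype comparisons in this order, 0 to 4, 0 to 4 and 0 to 2 for the Ly6C low ones, 4 to 7, 4 to 7 and 5 to 5 between subsets in WT, Slc29a3-/- and Slc29a3-/- Tlr7-/- mice, and 0 to 2 and 1 to 2 for the interactions. Among differences called in either fit, signs turned in 4 cases: Csf2rb2 (0.75) and Il6ra (-0.67) in Slc29a3-/- Tlr7-/- against WT Ly6C low cells in libraries without Y-linked reads, a choice that leaves 1 Slc29a3-/- Tlr7-/- library in each subset, and Csf3r (-0.066) and Kit (-0.71) between WT subsets with WT replicate 4 alone. Counting also those called in neither, 23 of 54 differences that involve WT turned with WT replicate 4 alone.

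With the replicate block, the calls fell from 1 to 0 for Slc29a3-/- Tlr7-/- against WT and from 2 to 0 for Slc29a3-/- against Slc29a3-/- Tlr7-/- in Ly6C low cells, from 1 to 0 for the interaction with WT, and from 2 to 1 for that with Slc29a3-/- Tlr7-/- mice. The numbers are not stated to pair samples: same-numbered libraries of a genotype correlated in their deviations at -0.606 to 0.668 (8 of 12 above 0.1), and those of a subset at -0.296 to 0.226 (5 of 24). Same-numbered Ly6C hi and Ly6C low libraries of a genotype also held the same kind of Xist and Y-linked reads, except Slc29a3-/- Tlr7-/- replicate 3. There Ly6C hi cells held both and Ly6C low cells Y-linked reads without Xist. Whether such libraries came from the same mice was not tested, and the main fit treated them as unpaired.

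The deposited table gives RPM, and a count test was not run. Kit and Flt3 in Ly6C low cells rest on few reads, and a group of 4 limits what small differences can be seen.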
